A study of Mus musculus with 18 samples.

Results

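The killer cell lectin-like receptors are a family of cell surface receptors of NK cells and some T cells. The 28 genes of 46073 in the count table whose symbol starts with Klra, Klrb, Klrc, Klrd, Klre, Klrg or Klrk were taken as the family, pseudogenes included. By symbol, 14 were Klra genes (the Ly49 receptors), 6 Klrb, 3 Klrc, 2 Klrg, and 1 each Klrd, Klre and Klrk. All 28 lie on mouse chromosome 6 (GRCm38), 24 annotated as protein coding and 4 as pseudogenes. The filter on low counts kept 23 members for testing, 12 of them Klra genes. The other 5 were Klrb1a, Klrb1, Klra11-ps, Klra14-ps and Klrb1-ps1. Klrb1-ps1 was listed at 0 in every library, and no library of the other 4 exceeded 0.119 CPM, counts scaled to library size.

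The series measured RNA of donor T cells on day 7 after haematopoietic stem cell transplantation in mice. The groups, with 3 libraries each, were Wapl KO donor T cells from allogeneic recipients (allogeneic KO), WT donor T cells from allogeneic recipients (allogeneic WT), Wapl KO donor T cells labelled as from syngeneic recipients (syngeneic KO) and WT donor T cells from syngeneic recipients (syngeneic WT). Wapl encodes a protein that releases cohesin, the ring complex that forms DNA loops, from chromosomes. Donors were C57BL/6 mice carrying CD45.2, described as female and 8 to 12 weeks old. The labels give no Cre line, no deleted exon and no separate sex for the KO donors. The protocol gives recipients as CD45.1 strains. Allogeneic recipients, labelled BALB/c in the sample fields and CByJ.SJL(B6)-Ptprca/J in the protocol, were given 8 Gy in a split dose and 1000000 T cells. Syngeneic recipients, B6.SJL-Ptprca Pepcb/BoyJ, were given 9.5 Gy and 8500000 T cells. All received 5000000 marrow cells depleted of T cells, so transplant type cannot be told apart from radiation dose and T cell dose. One field of the syngeneic KO libraries names CByJ.SJL(B6)-Ptprca/J, the strain that the protocol gives as allogeneic. They were grouped by the transplant type field, and each comparison with them carries this conflict. Each library held RNA of spleen T cells of 2 to 4 pooled mice, gated on viability, CD3 and CD45.2.

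Most of these receptors are encoded side by side in the NK gene complex, and they set the balance of activation and inhibition in NK cells. Inhibitory members carry a tail that recruits phosphatases, while activating members lack it and signal through adaptor proteins such as DAP12 (Tyrobp) and DAP10 (Hcst). Ly49 receptors bind MHC class I, the NKR-P1 receptors (Klrb1) bind Clec2 lectins, and NKG2 receptors paired with CD94 (Klrd1) bind the class Ib molecule Qa-1. On CD8 T cells, several of them appear after activation or mark memory-like cells.

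The 250 bases before the RefSeq gene start (GRCm38.p6) are printed for members that moved furthest or stand for a subgroup. RefSeq gave 27 such windows for 22 members. The first pair belongs to receptors that were higher in allogeneic cells, the NKR-P1 receptor gene Klrb1b (chr6:128826316-128826565, minus strand) and the NKG2D gene Klrk1 (chr6:129623865-129624114, minus strand). The others are Ly49 genes that were lower there, the inhibitory Klra6 (chr6:130026955-130027204) and Klra7 (chr6:130233323-130233572) and the activating Klra4 (chr6:130067272-130067521) and Klra8 (chr6:130129899-130130148), all on the minus strand. Each is written 5′ to 3′ along the gene, and capitals mark a match to a RUNX (TGTGGTT) or TCF/LEF (CTTTGAT) motif.
Klrb1b: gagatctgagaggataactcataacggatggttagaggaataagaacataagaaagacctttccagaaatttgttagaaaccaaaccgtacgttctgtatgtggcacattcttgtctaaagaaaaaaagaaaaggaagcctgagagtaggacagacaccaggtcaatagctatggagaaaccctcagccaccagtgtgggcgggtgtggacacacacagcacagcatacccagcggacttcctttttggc
Klrk1: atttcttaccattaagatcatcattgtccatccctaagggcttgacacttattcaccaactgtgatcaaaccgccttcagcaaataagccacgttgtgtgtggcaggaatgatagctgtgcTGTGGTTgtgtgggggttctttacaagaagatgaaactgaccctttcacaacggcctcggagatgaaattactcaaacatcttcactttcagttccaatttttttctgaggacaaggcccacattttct
Klra6: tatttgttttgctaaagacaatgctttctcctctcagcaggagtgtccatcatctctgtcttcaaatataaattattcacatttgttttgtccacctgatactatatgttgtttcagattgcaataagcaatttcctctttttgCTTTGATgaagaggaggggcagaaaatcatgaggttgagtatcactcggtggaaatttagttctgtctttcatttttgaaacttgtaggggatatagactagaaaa
Klra7: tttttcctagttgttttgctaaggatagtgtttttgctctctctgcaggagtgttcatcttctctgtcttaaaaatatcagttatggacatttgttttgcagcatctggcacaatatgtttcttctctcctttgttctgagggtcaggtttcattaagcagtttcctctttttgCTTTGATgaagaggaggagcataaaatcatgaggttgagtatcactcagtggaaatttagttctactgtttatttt
Klra4: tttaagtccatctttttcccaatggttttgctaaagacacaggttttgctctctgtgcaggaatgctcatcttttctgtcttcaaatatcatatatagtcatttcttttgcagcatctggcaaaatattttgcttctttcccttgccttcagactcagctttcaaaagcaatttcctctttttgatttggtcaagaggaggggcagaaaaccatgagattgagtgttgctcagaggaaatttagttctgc
Klra8: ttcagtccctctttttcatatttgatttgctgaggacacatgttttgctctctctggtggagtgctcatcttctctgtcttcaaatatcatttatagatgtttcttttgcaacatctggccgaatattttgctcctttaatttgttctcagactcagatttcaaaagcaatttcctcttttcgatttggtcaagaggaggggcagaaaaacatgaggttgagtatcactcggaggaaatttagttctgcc

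The windows of the activating pair Klra4 and Klra8 were identical at 84.8% of positions, and those of Klra5 and Klra6 at 81.6%. The longest run found in all 4 printed Ly49 windows was ggaaatttagttct, of 14 bases. Motifs were searched on both strands by their letters alone. The RUNX motif was found in 3 of the 27 member windows (of Klre1, Klrk1 and Klra1), against 4.40% of all 32851 windows of the same length. The TCF/LEF motif was found in 2 of the 27 (of Klra6 and Klra7), against 3.21%. Klre1 and Klra7 each also have another window, without a match, and for Klra7 the matching window is the one printed. A T-box motif (AGGTGTGA) and an AP-1 motif (TGANTCA) were found in 0 member windows, against 1.12% and 6.75% of all windows. A match is a description of these letters and not a site in use.

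Library totals ran from 45965600 to 89007100 counts, of which the family took 4374 to 33398. Ribosomal RNA genes took 8.19 to 32.0% of counts, most in syngeneic KO replicate 1. Wapl, listed as Wapal, stood at means of 140.0 CPM in allogeneic KO, 161.0 in allogeneic WT, 134.6 in syngeneic KO and 187.8 in syngeneic WT. Its reads outside a deleted part would still be counted, so these levels do not measure its loss. The 10 T cell markers summed to 2693 CPM or more in every library. Y-linked genes summed to 31.4 to 138 CPM in KO libraries and 0.733 to 1.75 CPM in WT libraries, so donor sex and genotype cannot be told apart. In bulk samples, fewer cells of a type and less RNA per cell cannot be told apart.

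Some members share transcript sequence, and how the authors' counting treated shared reads is not given in the sources used here. Of the 50-base stretches in annotated transcripts, 39.8% in Klra10, 33.1% in Klra8 and 31.5% in Klra9 also occur in another member. In the pseudogene Klra13-ps 13.7% do, most often in Klra7. The share was 38.6% in Klrc1 and 36.3% in Klrc3, mostly with Klrc2, so how these 3 divide their counts is uncertain. Klrg1, Klrk1, Klrd1, Klrb1f, Klra2 and Klra17 share none. A read-through gene, Gm44511, spans Klrb1c and Klrb1b, and with it the shared portion was 27.2% in Klrb1b and 17.0% in Klrb1c.

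The comparison of allogeneic with syngeneic cells asked how T cells that meet foreign tissue differ from those that do not. Klrb1b, Klrb1c, Klrc1, Klrk1 and Klrg1 were called higher in allogeneic cells of both genotypes. The members called lower were all Ly49 genes, though Klra2 and Klra17 were not among them. In WT, edgeR's quasi-likelihood test with Benjamini-Hochberg adjustment over 18447 genes called 5 members higher, where 16.4% of all tested genes were, and 10 lower, where 15.9% were (32.3% in either direction). The 10 that fell were among the 12 Ly49 genes tested. In KO cells, 6 members were higher, against 13.2% of all tested genes, and 8 were lower, against 11.2% (24.4% in either direction). In WT cells, 6 members had all allogeneic libraries above all syngeneic ones, against 28.2% of tested genes, and 11 had all below, against 27.5% (55.7% either way). In KO cells these counts were 6 and 9, against 17.0 and 16.6% (33.6% either way). The median log2 fold change of the tested members was −0.84 in WT cells and 0.26 in KO cells, beside −0.03 and −0.02 over all tested genes. Members could pass the filter through the group where they were high, so counts over the 23 describe these genes only.

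**Figure D1:**
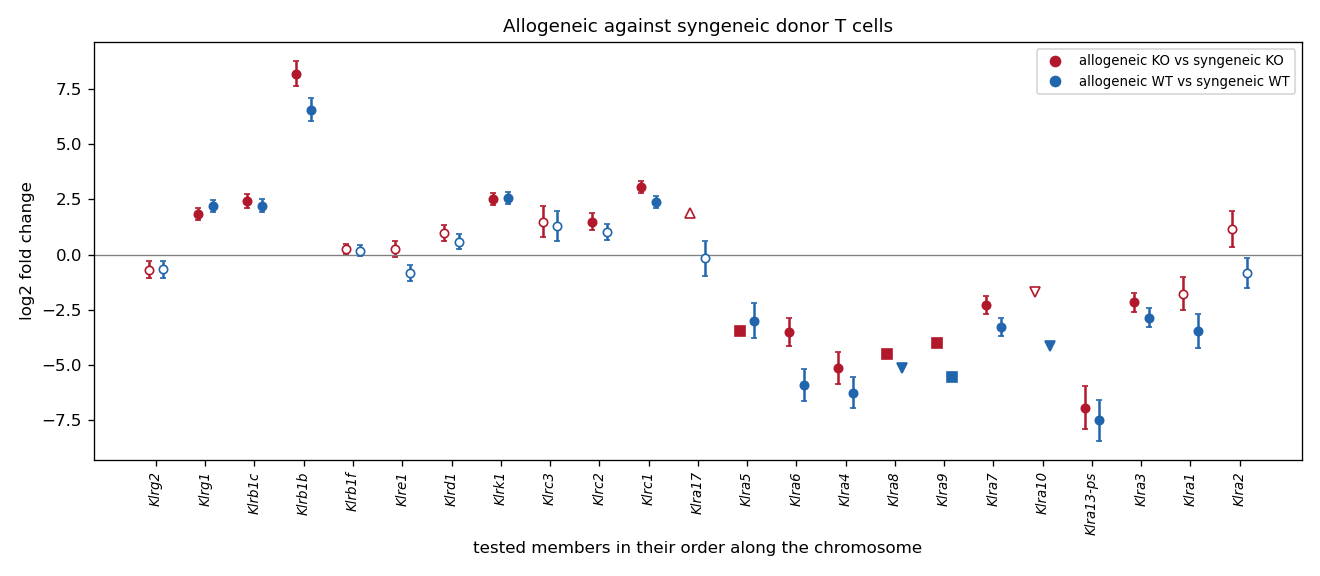
Log2 fold change of allogeneic against syngeneic cells for the 23 tested members, in their order along the chromosome, in KO cells (red) and WT cells (blue). Circles are fitted values with SE, filled where edgeR's adjusted p was under 0.05. Triangles are bounds where 1 group had no count and squares are ratios of counts where 1 group had 1 to 3. Ly49 genes other than Klra2 and Klra17 lie below 0 in both genotypes, and Klrb1b stands highest.

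Klrb1b, an inhibitory NKR-P1 receptor that binds Clec2d, had the largest rise. It stood at 41.1, 59.5 and 33.8 CPM in allogeneic KO libraries and 15.2, 16.6 and 34.7 in allogeneic WT libraries, against 0.0402, 0.172 and 0.238 in syngeneic KO libraries and 0.109, 0.240 and 0.358 in syngeneic WT libraries. No allogeneic library came near a syngeneic one. The log2 fold change of allogeneic over syngeneic cells was 8.19 ± 0.56 (SE) in KO (edgeR adjusted p = 1.37e-06) and 6.56 ± 0.52 in WT (adjusted p = 2.75e-06). Its ligand gene Clec2d stood at means of 80.7, 75.6, 77.8 and 73.0 CPM in allogeneic KO, allogeneic WT, syngeneic KO and syngeneic WT.

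Klrb1c encodes NK1.1, an activating NKR-P1 receptor used to mark NK cells in C57BL/6 mice, and lies next to Klrb1b. Its levels were 19.7, 55.6 and 30.1 CPM in allogeneic KO and 27.5, 30.7 and 27.1 in allogeneic WT, against 6.75, 5.71 and 6.94 in syngeneic KO and 4.45, 6.86 and 6.95 in syngeneic WT. The groups did not overlap, but unlike Klrb1b the gene was already present in syngeneic cells. It rose by 2.44 ± 0.31 on the log2 scale in KO (edgeR adjusted p = 0.00013) and by 2.22 ± 0.31 in WT (adjusted p = 0.00019). Klrb1b counts per Klrb1c count were 1.07 to 2.09 in allogeneic KO and 0.540 to 1.28 in allogeneic WT, against 0.00595 to 0.0343 in syngeneic KO and 0.0245 to 0.0515 in syngeneic WT. Klrb1f, which binds Clec2i, was level, between 1.73 and 3.43 CPM in all 12 libraries.

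**Figure D2:**
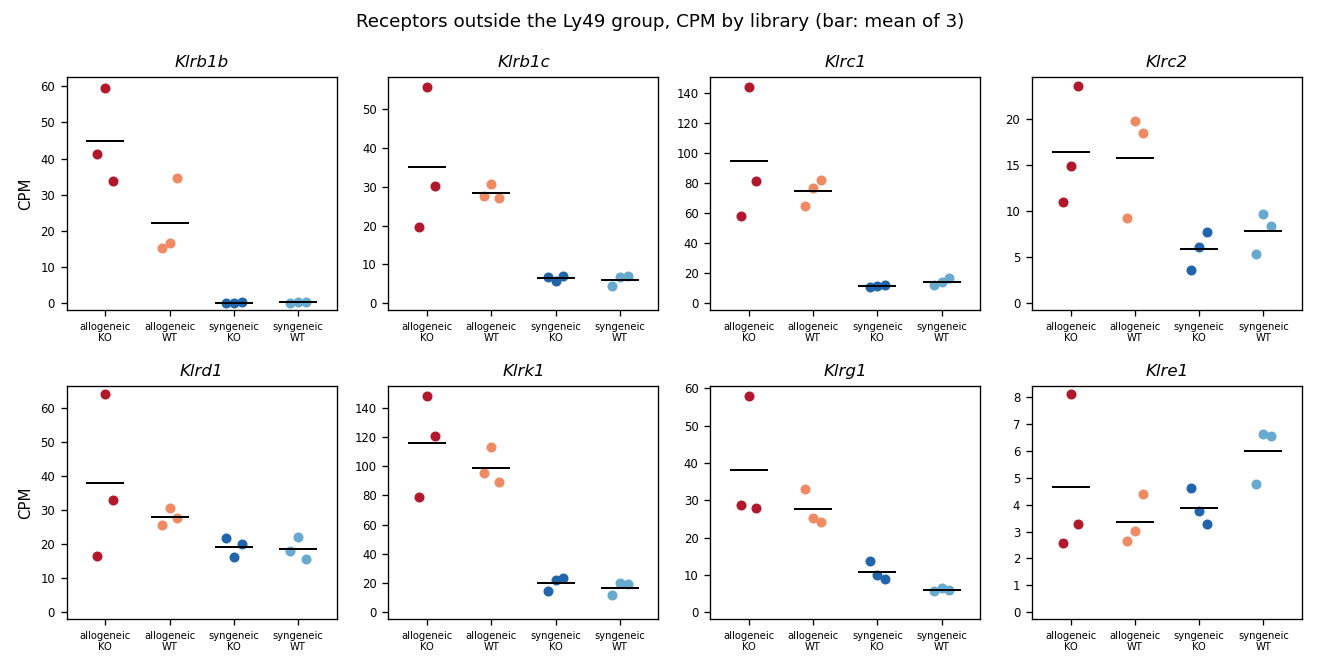
CPM of 8 receptors outside the Ly49 group in each library. Points are libraries and bars are means of 3, on a linear axis from 0, with groups in the order allogeneic KO, allogeneic WT, syngeneic KO and syngeneic WT. Klrb1b, Klrb1c, Klrc1, Klrk1 and Klrg1 lie higher in every allogeneic library, while Klrd1 and Klre1 overlap between settings, and allogeneic KO replicate 2 is the top point in 7 of the 8 panels.

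Klrc1, which encodes the inhibitory NKG2A chain, stood at 57.8, 144 and 81.3 CPM in allogeneic KO and 64.7, 76.8 and 82.1 in allogeneic WT, against 10.6, 11.3 and 12.1 in syngeneic KO and 12.2, 14.1 and 16.6 in syngeneic WT. Every allogeneic library was above every syngeneic one. Its log2 fold change was 3.05 ± 0.28 in KO (edgeR adjusted p = 8.85e-06) and 2.38 ± 0.27 in WT (adjusted p = 3.46e-05). Its partner chain CD94 (Klrd1) moved less. Klrd1 stood at 16.6, 63.9 and 33.0 CPM in allogeneic KO and 25.5, 30.6 and 27.8 in allogeneic WT, against 21.7, 16.2 and 19.9 in syngeneic KO and 18.1, 22.1 and 15.7 in syngeneic WT. The WT groups were apart, and allogeneic KO replicate 1 fell inside the syngeneic KO range. Klrd1 was not called, with a log2 fold change of 0.97 ± 0.36 in KO (edgeR adjusted p = 0.0678, 0.00284 without allogeneic KO replicate 1, and 0.0212 by DESeq2) and 0.59 ± 0.36 in WT (adjusted p = 0.226, and 0.00675 when only these 2 groups were fitted). The number of Klrc1 counts per Klrd1 count was 2.25 to 3.47 in allogeneic KO and 2.51 to 2.95 in allogeneic WT, against 0.488 to 0.698 in syngeneic KO and 0.638 to 1.05 in syngeneic WT. The ratio was higher in every allogeneic library than in any syngeneic one, and was below 1 in all syngeneic libraries but syngeneic WT replicate 3.

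Klrc2, which encodes NKG2C, the activating counterpart of NKG2A, stood at 11, 14.9 and 23.6 CPM in allogeneic KO and 9.27, 19.8 and 18.4 in allogeneic WT, against 3.66, 6.15 and 7.77 in syngeneic KO and 5.35, 9.70 and 8.43 in syngeneic WT. The KO groups did not overlap, while allogeneic WT replicate 1 fell among the syngeneic WT libraries. Klrc2 rose in KO by 1.49 ± 0.37 on the log2 scale (edgeR adjusted p = 0.0121). In WT it had 1.02 ± 0.37 and narrowly missed the call (adjusted p = 0.0525, 0.0210 without allogeneic WT replicate 1, and 0.0215 by DESeq2). The test of the difference between genotypes gave an edgeR adjusted p of 1. Klrc3, which encodes NKG2E, stayed at 0.896 CPM or below in every library and was not called.

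Klrk1 encodes NKG2D, an activating receptor for stress-induced ligands that signals through DAP10. It stood at 78.9, 148 and 121 CPM in allogeneic KO and 95.2, 113 and 88.9 in allogeneic WT, against 14.3, 22.0 and 23.8 in syngeneic KO and 11.6, 19.7 and 19.3 in syngeneic WT. No allogeneic library came down to the syngeneic range. Klrk1 rose by 2.53 ± 0.27 on the log2 scale in KO (edgeR adjusted p = 3.27e-05) and by 2.55 ± 0.27 in WT (adjusted p = 2.29e-05). Its adaptor gene Hcst was not called in the fit of all libraries, with means of 51.9, 47.1, 40.1 and 29.8 CPM in allogeneic KO, allogeneic WT, syngeneic KO and syngeneic WT.

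Klrg1, an inhibitory receptor that binds cadherins and marks short-lived effector CD8 T cells, stood at 28.8, 57.9 and 27.8 CPM in allogeneic KO and 33.1, 25.3 and 24.3 in allogeneic WT, against 13.7, 9.90 and 8.84 in syngeneic KO and 5.57, 6.59 and 5.96 in syngeneic WT. The settings did not overlap, and within syngeneic cells the KO libraries were all above the WT ones. It rose in allogeneic cells by 1.82 ± 0.27 on the log2 scale in KO (edgeR adjusted p = 0.000381) and by 2.19 ± 0.28 in WT (adjusted p = 7.47e-05). Klrg2, a related gene of less known function, was between 0.284 and 1.52 CPM and was not called. Klre1, an NK receptor that pairs with Klri proteins, stood at 2.56, 8.12 and 3.30 CPM in allogeneic KO and 2.65, 3.00 and 4.39 in allogeneic WT, against 4.6, 3.78 and 3.29 in syngeneic KO and 4.78, 6.64 and 6.54 in syngeneic WT. It lay lower in every allogeneic WT library, without passing the test (log2 fold change −0.84 ± 0.37, edgeR adjusted p = 0.101, and 0.0144 when only these 2 groups were fitted).

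The Ly49 genes moved the other way. Summed over all 14, they stood at 0.868, 1.95 and 2.07 CPM in allogeneic KO and 2.03, 1.45 and 1.27 in allogeneic WT, against 9.45, 10.8 and 17.9 in syngeneic KO and 18.7, 29.7 and 27.8 in syngeneic WT. Every allogeneic library lay below every syngeneic one. As a share of the family's CPM, Ly49 genes made up 0.333 to 0.574% in allogeneic KO and 0.405 to 0.727% in allogeneic WT, against 10.7 to 17.2% in syngeneic KO and 22.2 to 24.9% in syngeneic WT. The family as a whole was at 392.8 ± 150.7 CPM in allogeneic KO and 304.3 ± 22.2 in allogeneic WT, against 94.0 ± 9.18 in syngeneic KO and 105.2 ± 18.5 in syngeneic WT (SD, n = 3 each).

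**Figure D3:**
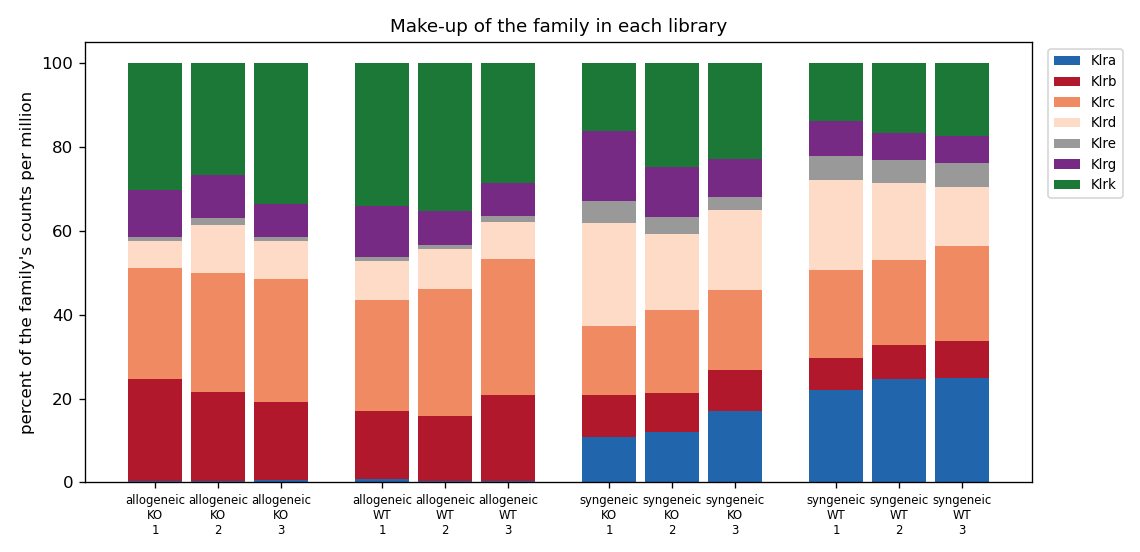
Share of each subgroup in the summed CPM of the 28 members, for each of the 12 libraries, in percent. The Klra (Ly49) segment is 10.7% or more in every syngeneic library and 0.727% or less in every allogeneic one, where Klrb, Klrc and Klrk take most of the total.

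Klra8 encodes Ly49H, the activating receptor for a mouse cytomegalovirus protein. It had 0, 0 and 0.0145 CPM in allogeneic KO and 0 in all 3 allogeneic WT libraries, against 0.121, 0.155 and 0.119 CPM in syngeneic KO and 0.373, 0.667 and 0.443 in syngeneic WT. Of allogeneic libraries, a single one held a single count. Klra8 was at least 35.2-fold lower in allogeneic WT than in syngeneic WT, set against a floor of 3 counts over the group (edgeR adjusted p = 5.63e-05). In KO, 1 count stood against 21, a ratio of 22.8 (95% interval 3.66 to 942, counting error only), with an adjusted p of 0.00475 by edgeR. Klra8 held 6, 9 and 6 counts in the syngeneic KO libraries. It passed the filter through syngeneic WT (24, 39 and 26 counts), a group outside the KO comparison. When only the KO groups were fitted it fell below the filter, so its call in KO could not be checked there.

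Klra4 encodes Ly49D, an activating receptor that signals through DAP12. It stood at 0, 0.050 and 0.0145 CPM in allogeneic KO and 0.0174, 0.0407 and 0 in allogeneic WT, against 0.422, 0.894 and 1.31 in syngeneic KO and 1.43, 1.95 and 2.27 in syngeneic WT. All 6 allogeneic libraries lay far below the syngeneic ones. The log2 fold change was −5.12 ± 0.73 in KO (edgeR adjusted p = 0.000227) and −6.27 ± 0.70 in WT (adjusted p = 2.49e-05). Tyrobp, the DAP12 gene, was not called, with means of 3.63 CPM in allogeneic KO, 6.22 in allogeneic WT, 3.35 in syngeneic KO and 10.3 in syngeneic WT.

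**Figure D4:**
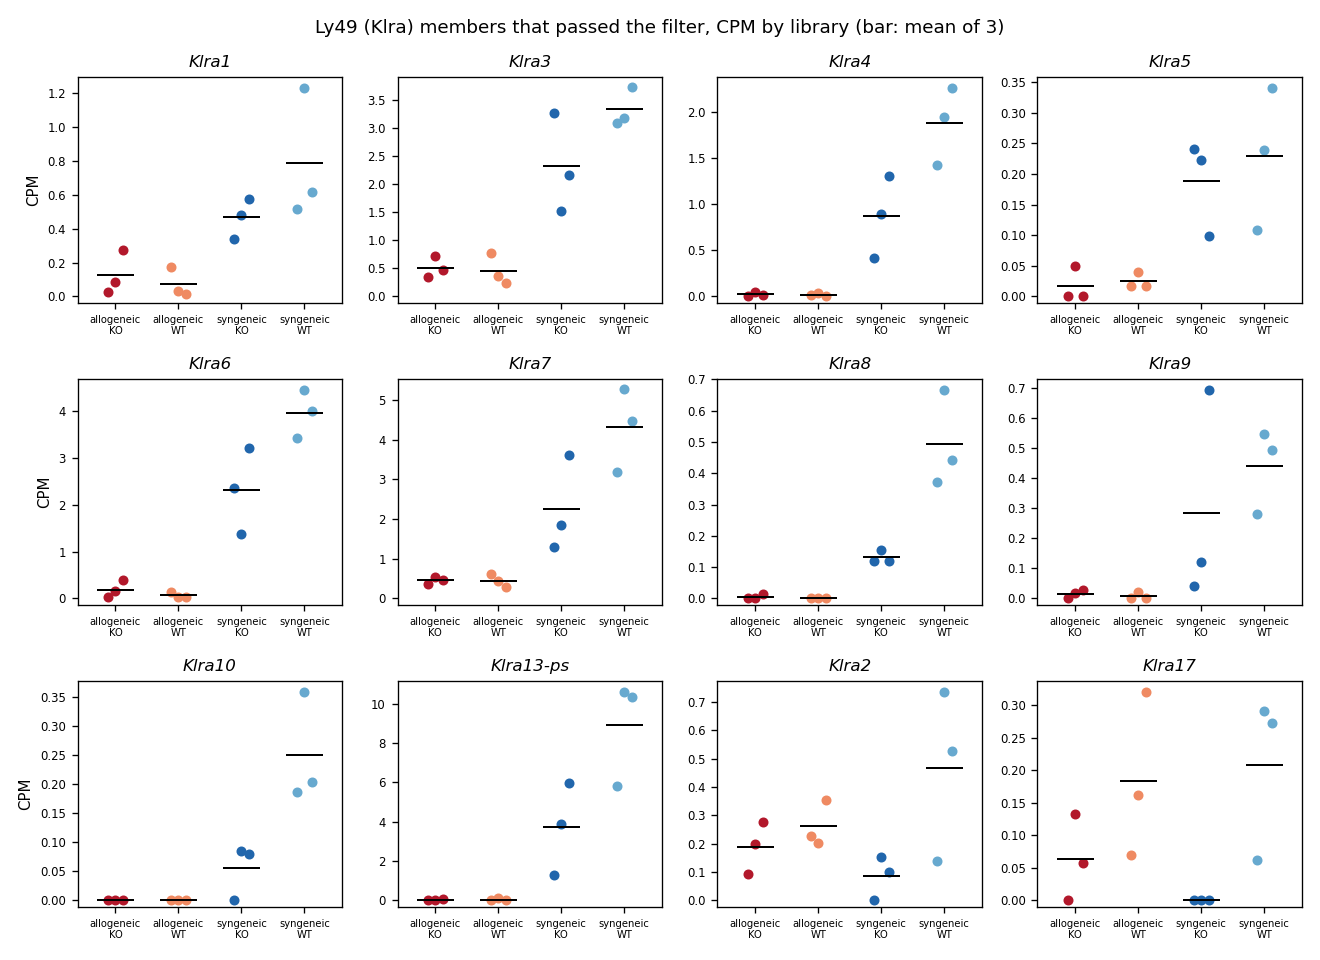
CPM of the 12 Ly49 genes that passed the filter, in each library. Points are libraries and bars are means of 3, on linear axes that start at 0 and differ between panels. In 10 of the 12 panels every allogeneic library lies below every syngeneic WT library, and in those of Klra2 and Klra17 they overlap.

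Among the inhibitory receptors, Klra6 (Ly49F) stood at 0.0235, 0.150 and 0.391 CPM in allogeneic KO and 0.139, 0.0305 and 0.0338 in allogeneic WT, against 2.35, 1.38 and 3.21 in syngeneic KO and 3.42, 4.45 and 4.00 in syngeneic WT. No allogeneic library reached the syngeneic range. It fell by 3.52 on the log2 scale in KO (SE 0.64, edgeR adjusted p = 0.0015) and by 5.92 in WT (SE 0.73, adjusted p = 6.33e-05). Klra7 (Ly49G) stood at 0.375, 0.534 and 0.477 CPM in allogeneic KO and 0.607, 0.438 and 0.287 in allogeneic WT, against 1.29, 1.84 and 3.61 in syngeneic KO and 3.19, 5.27 and 4.48 in syngeneic WT. It kept a measurable level in allogeneic cells, as did Klra3. The log2 fold change of Klra7 was −2.27 ± 0.40 in KO (edgeR adjusted p = 0.00129) and −3.28 ± 0.41 in WT (adjusted p = 6.53e-05).

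Klra3 (Ly49C), which binds H-2Kb, the class I molecule of the donor strain, stood at 0.352, 0.717 and 0.477 CPM in allogeneic KO and 0.781, 0.366 and 0.237 in allogeneic WT, against 3.28, 1.53 and 2.16 in syngeneic KO and 3.08, 3.18 and 3.73 in syngeneic WT. It fell in both genotypes, with a log2 fold change of −2.15 ± 0.43 in KO (edgeR adjusted p = 0.00275) and −2.86 ± 0.44 in WT (adjusted p = 0.000302). Klra1 (Ly49A), which binds class I of other strains, stood at 0.0235, 0.0834 and 0.275 CPM in allogeneic KO and 0.174, 0.0305 and 0.0169 in allogeneic WT, against 0.342, 0.481 and 0.575 in syngeneic KO and 0.513, 1.23 and 0.613 in syngeneic WT. All allogeneic libraries were below the syngeneic ones, but Klra1 fell by the test in WT only, where the log2 fold change was −3.47 ± 0.78 (edgeR adjusted p = 0.00456). In KO it was −1.77 ± 0.73 (adjusted p = 0.0989, and 0.0199 without allogeneic KO replicate 3), and the test of the difference between genotypes had an adjusted p of 1.

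Klra9 (Ly49I), an inhibitory receptor, held 3 counts in allogeneic KO and 2 in allogeneic WT, against 44 in syngeneic KO and 79 in syngeneic WT. The ratio was 15.9 in KO (95% interval 5.10 to 80.1) and 46.8 in WT (12.5 to 393), lower in allogeneic cells, with edgeR adjusted p of 0.0215 and 0.00304. Of the 44 syngeneic KO counts most came from replicate 3, at 0.694 CPM beside 0.0402 and 0.120 in the others, and without it the call in KO was lost (adjusted p = 0.165), as it was without allogeneic KO replicate 1 (0.0689) or 2 (0.0693). Klra5 (Ly49E) held 3 counts in allogeneic KO and 30 in syngeneic KO, a ratio of 10.8 (3.37 to 55.5, edgeR adjusted p = 0.0185), and this call was lost without allogeneic KO replicate 1 (0.0596), allogeneic KO replicate 3 (0.0530) or syngeneic KO replicate 2 (0.0599). Klra5 and Klra9 also fell below the filter when only the KO groups were fitted, so their calls in KO could not be checked there. In WT, Klra5 averaged 0.0250 CPM in allogeneic cells and 0.230 in syngeneic cells (log2 fold change −2.99 ± 0.79, edgeR adjusted p = 0.0117, and 0.0572 without syngeneic WT replicate 3). Klra10 (Ly49J) had no count in any of the 6 allogeneic libraries, against 9 counts in syngeneic KO and 45 in syngeneic WT. It was at least 17.8-fold lower in WT (edgeR adjusted p = 0.00364) and at least 3.25-fold lower in KO, where it was not called (adjusted p = 0.0679, and 0.0215 without syngeneic KO replicate 1).

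By mean CPM, the pseudogene Klra13-ps was the highest Ly49 gene of both syngeneic groups. In syngeneic KO replicate 1, however, it lay below Klra3 (3.28 CPM) and Klra6 (2.35 CPM). It stood at 0, 0.0167 and 0.0579 CPM in allogeneic KO and 0, 0.112 and 0 in allogeneic WT, against 1.31, 3.88 and 5.97 in syngeneic KO and 5.82, 10.6 and 10.3 in syngeneic WT. All allogeneic libraries were near 0. Klra13-ps had a log2 fold change of −6.93 ± 0.98 in KO (edgeR adjusted p = 0.00033) and −7.51 ± 0.92 in WT (adjusted p = 8.28e-05). Klra14-ps, below the filter, had no count in allogeneic cells and was at least 5.93-fold lower in allogeneic WT than in syngeneic WT. With no filter on low counts it was called lower there (edgeR adjusted p = 0.0211).

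Klra2 (Ly49B) and Klra17 (Ly49Q), which are best known from myeloid and plasmacytoid dendritic cells, were the tested Ly49 genes that were not called in either genotype. Klra2 ranged from 0.0938 to 0.275 CPM in allogeneic KO and from 0.204 to 0.355 in allogeneic WT, against 0 to 0.155 in syngeneic KO and 0.140 to 0.736 in syngeneic WT. Klra17 stood at 0, 0.133 and 0.0579 CPM in allogeneic KO and 0.0694, 0.163 and 0.321 in allogeneic WT, against 0 in all syngeneic KO libraries and 0.0622, 0.291 and 0.273 in syngeneic WT. In KO it was at least 3.69-fold higher in allogeneic cells (edgeR adjusted p = 0.078, 0.0333 by DESeq2, and 0.0493 without allogeneic KO replicate 1). The 8 myeloid markers summed to 28.8 to 157 CPM in allogeneic KO and 142 to 234 in allogeneic WT, against 7.84 to 44.0 in syngeneic KO and 99.2 to 324 in syngeneic WT, and their part in these 2 genes was not tested.

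Per kilobase of exon, Klrc1 had the highest mean level in allogeneic KO cells (47.5 CPM per kb), followed by Klrd1 (29.5), Klrg1 (27.0), Klrb1b (20.1), Klrk1 (16.1) and Klrb1c (11.9). The order in allogeneic WT was the same for the first 3, at 37.6, 21.8 and 19.5, followed by Klrk1 (13.8), Klrb1b (9.95) and Klrb1c (9.60). In syngeneic KO the order began with Klrd1 (15.0), Klrg1 (7.65), Klrc1 (5.72) and Klra13-ps (3.57). In syngeneic WT it began with Klrd1 (14.5), Klra13-ps (8.57), Klrc1 (7.20) and Klrg1 (4.27), and then came Klra6 (3.55) and Klra7 (3.41). In allogeneic KO, each gene's libraries overlapped those of the next in this order. In allogeneic WT, Klrc1 stood clear of Klrd1 and Klrg1 clear of Klrk1, while the other neighbours overlapped. In syngeneic cells Klrd1 stood clear of every other member in both genotypes, while Klrc1 and Klra13-ps overlapped. The annotated exons of Klrk1 add up to 7183 bases and those of Klrc2 to 5812, which lowers their values per kilobase.

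Most, but not all, of the listed NK cell markers were higher in allogeneic cells. Over all tested genes, 13.2% were called higher and 11.2% lower in KO, and 16.4 and 15.9% in WT. The list of genes outside the family that is named NK-defining here holds Ncr1 (NKp46), Fcer1g, Tyrobp, Cma1 and Khdc1a. Its summed level was 18.8 to 42.5 CPM in allogeneic KO and 21.9 to 26.4 in allogeneic WT, against 1.79 to 9.78 in syngeneic KO and 7.92 to 24.0 in syngeneic WT. The WT ranges overlapped, and Tyrobp had a lower mean in allogeneic WT (6.22 CPM) than in syngeneic WT (10.3 CPM). Tyrobp and Fcer1g encode adaptors, are not particular to NK cells and held most of the summed mean in each group. Their means were 10.3 and 6.69 CPM of 17.7 in syngeneic WT, and 3.35 and 1.95 of 5.55 in syngeneic KO. Of the 5, edgeR called 4 higher in KO and 3 in WT. Of 19 tested genes of a wider NK cell list, which includes genes that effector T cells also use, 13 were higher and 1 lower in each genotype. Eomes, also on that list, had a lower mean in allogeneic cells of both genotypes. Ncr1 stood at 5.79, 3.14 and 1.78 CPM in allogeneic KO and 1.60, 1.41 and 1.84 in allogeneic WT, against 0.0804, 0.189 and 0.258 in syngeneic KO and 0.280, 0.753 and 0.750 in syngeneic WT. None of the 5 was at 0 in a whole group, though Cma1 was at 0 in syngeneic KO replicate 1 and syngeneic WT replicate 2, and Khdc1a in syngeneic WT replicate 3. Their part in the receptor levels was not tested. Of 5 markers of NKT cells 2 were tested and edgeR called 1 higher. That was Cxcr6, which effector T cells also express, with means of 277 CPM in allogeneic KO and 214 in allogeneic WT, against 34.9 in syngeneic KO and 26.7 in syngeneic WT. The other, Zbtb16, which encodes the NKT factor PLZF, was not called, with means of 1.19, 1.21, 3.16 and 1.52 CPM in the same order of groups, and the means of Traj18, Trav11 and Trav11d did not exceed 0.0773 CPM in any group. Markers of red cell precursors summed to 4.51 to 9.26 CPM in allogeneic KO and 6.42 to 13.1 in allogeneic WT, against 10.5 to 48.2 in syngeneic KO and 1535 to 3157 in syngeneic WT, so they were lower together with the Ly49 genes (6 of 6 called in WT and 2 of 6 in KO). Markers of gamma delta T cells, which the CD3 gate keeps, summed to 14.6 to 19.2 CPM in allogeneic KO and 12.1 to 17.7 in allogeneic WT, against 9.83 to 15.0 in syngeneic KO and 21.2 to 24.5 in syngeneic WT. Of these 6 genes, edgeR called 1 higher (Tcrg-C2) and 1 lower (Trdc) in KO, and 1 higher (Tcrg-C2) and 2 lower (Trdc and Blk) in WT. The part of either marker list in the Ly49 levels was not tested. Cd8a stood at means of 458, 353, 644 and 545 CPM in allogeneic KO, allogeneic WT, syngeneic KO and syngeneic WT, and Cd4 at 302, 396, 222 and 188. In WT, allogeneic cells had lower Cd8a (log2 fold change −0.63 ± 0.19, edgeR adjusted p = 0.0205) and higher Cd4 (1.08 ± 0.23, adjusted p = 0.00362). Cd8b1, the other CD8 chain gene, was not called lower there, with means of 415 CPM in allogeneic WT and 464 in syngeneic WT. In KO, edgeR called 0 of the 10 T cell markers in either direction.

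Adaptor and signalling genes act below these receptors. Of 17 tested, edgeR called 3 higher in KO, a share near the 13.2% of all tested genes, and 5 higher in WT, against 16.4%, with 0 lower in either. Ptpn11, which encodes the phosphatase SHP-2 that inhibitory tails recruit, averaged 312 CPM in allogeneic KO and 315 in allogeneic WT, against 131 in syngeneic KO and 115 in syngeneic WT (log2 fold change 1.26 ± 0.11 in KO and 1.45 ± 0.11 in WT). Zap70, a kinase of activating receptors and the T cell receptor, rose by 0.65 ± 0.18 in KO and 0.97 ± 0.18 in WT. The call in KO was lost without allogeneic KO replicate 1 (edgeR adjusted p = 0.0514), syngeneic KO replicate 2 (0.0808) or syngeneic KO replicate 3 (0.0847), and when only these groups were fitted (0.0618). Fcer1g, an adaptor chain, rose in KO by 3.56 ± 0.88, and edgeR's adjusted p of 0.0154 became 0.0507 without allogeneic KO replicate 2, 0.0699 without syngeneic KO replicate 2 and 0.0836 when only these groups were fitted. Inpp5d, a phosphatase of inhibitory receptors, rose in WT by 0.52 ± 0.11, and Lcp2, an adaptor of T cell signalling, by 0.56 ± 0.14.

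The ligands of these receptors were also measured within the T cells. Of 10 ligand genes tested, edgeR called 1 higher and 0 lower in KO, against 13.2 and 11.2% of all tested genes. In WT it called 2 higher and 1 lower, against 16.4 and 15.9%. Cdh1, the E-cadherin ligand of Klrg1, averaged 2.25 CPM in allogeneic KO and 2.42 in allogeneic WT, against 1.17 in syngeneic KO and 1.14 in syngeneic WT (log2 fold change 0.95 ± 0.32 in KO, edgeR adjusted p = 0.0476, and 1.08 ± 0.32 in WT, adjusted p = 0.0208). The call in KO, where libraries overlapped, was lost without allogeneic KO replicate 2 or 3 or syngeneic KO replicate 1 or 2 (0.0697 to 0.173). It was also lost when only these groups were fitted (0.173), with no filter (0.0607) and without ribosomal RNA genes (0.0511). The call in WT was lost without allogeneic WT replicate 2 or syngeneic WT replicate 1 or 2 (0.0602 to 0.0784). H2-D1, a class I gene, rose in WT by 0.73 ± 0.20, a call lost without allogeneic WT replicate 1 or without syngeneic WT replicate 2 or 3 (edgeR adjusted p of 0.0531 to 0.0735). H60c, an NKG2D ligand, fell in WT by 2.32 on the log2 scale, at a mean of 0.0805 CPM in allogeneic WT and 0.449 in syngeneic WT. H2-T23, which encodes Qa-1, the ligand of the NKG2A and CD94 pair, was not called in the fit of all libraries, with means of 214, 205, 194 and 163 CPM in allogeneic KO, allogeneic WT, syngeneic KO and syngeneic WT.

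The NK gene complex also holds genes outside the family. Of 12 tested neighbours, edgeR called 2 higher and 0 lower in KO, against 13.2 and 11.2% of all tested genes. In WT it called 3 higher and 1 lower, against 16.4 and 15.9%. Gabarapl1, an autophagy gene beside the Klr cluster, averaged 32.5 CPM in allogeneic KO and 24.5 in allogeneic WT, against 9.81 in syngeneic KO and 10.4 in syngeneic WT (log2 fold change 1.73 ± 0.19 in KO and 1.23 ± 0.19 in WT). Ybx3, an RNA-binding protein gene, rose by 0.83 ± 0.17 in KO and 0.80 ± 0.17 in WT. Magohb rose in WT by 0.55 ± 0.16, a call lost without allogeneic WT replicate 1 or syngeneic WT replicate 2 or 3 (edgeR adjusted p of 0.0610 to 0.0766). Clec9a, a dendritic cell receptor, fell in WT (means of 0.101 CPM in allogeneic WT and 0.668 in syngeneic WT), a call lost without allogeneic WT replicate 2 or 3 or syngeneic WT replicate 2 or 3 (0.0519 to 0.0799).

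Effector and memory genes of CD8 T cells changed in both directions. Of 14 tested, edgeR called 8 higher and 2 lower in both KO and WT. Over all tested genes, 13.2% were higher and 11.2% lower in KO, and 16.4 and 15.9% in WT. Cx3cr1, a chemokine receptor of effector cells, averaged 76.4 CPM in allogeneic KO and 56.7 in allogeneic WT, against 3.6 in syngeneic KO and 3.88 in syngeneic WT (log2 fold change 4.41 ± 0.20 in KO and 3.87 ± 0.19 in WT). Gzma, a granzyme, rose by 5.69 ± 0.39 in KO and 5.78 ± 0.39 in WT. Ccr7, a homing receptor of naive and central memory cells, fell to 7.92 CPM in allogeneic KO and 12.2 in allogeneic WT, against 160.0 in syngeneic KO and 186 in syngeneic WT (log2 fold change −4.34 ± 0.25 in KO and −3.94 ± 0.25 in WT). Of 16 tested transcription factors known to regulate these receptors or the cells that carry them, 6 were higher and 5 lower in KO, and 7 higher and 4 lower in WT. The same shares of all tested genes apply to these counts. Id2 and Nfil3, both needed for NK cells, rose by 2.09 ± 0.13 and 2.55 ± 0.20 in KO and by 2.57 ± 0.14 and 2.58 ± 0.20 in WT. Eomes, a factor on the wider NK cell list, went the other way. Its means were 76.0 CPM in allogeneic KO and 63.5 in allogeneic WT, against 167 in syngeneic KO and 152 in syngeneic WT. Prdm1, the effector factor Blimp-1, rose by 1.87 ± 0.18 in KO and 2.82 ± 0.18 in WT. Bach2, which restrains effector genes, was lower, with a log2 fold change of −2.98 ± 0.25 in KO and −3.12 ± 0.25 in WT.

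Whether Wapl loss altered the family in donor T cells was asked next, first in allogeneic recipients. EdgeR called no member, where 0.0542% of all tested genes were called (0.0434% higher and 0.0108% lower). A raw p under 0.05 was found for 1 member, against 4.18% of tested genes, and DESeq2 called 0, against 0.417%. KO and WT libraries overlapped for all 23 tested members, while they did not for 7.66% of tested genes (3.29% all higher and 4.37% all lower). Klrb1b came closest, at 41.1, 59.5 and 33.8 CPM in allogeneic KO and 15.2, 16.6 and 34.7 in allogeneic WT. Its KO libraries were higher but for WT replicate 3, which exceeded KO replicate 3. The log2 fold change was 1.02 ± 0.37 (edgeR adjusted p = 0.963). Allogeneic KO replicate 2 was the highest of the 6 allogeneic libraries for Klrb1b, Klrb1c, Klrc1, Klrd1, Klrk1, Klrg1 and Klre1, with 557 CPM for the whole family beside 261 and 360 in the other KO libraries and 279, 321 and 313 in the WT ones. The T cell markers were also highest there, at 4976 CPM beside 3485 to 3943 in the other 5 allogeneic libraries.

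After syngeneic transplantation no member was called either, where 3.37% of all tested genes were (0.743% higher and 2.63% lower). A raw p under 0.05 was found for 7 members, against 14% of tested genes, and DESeq2 called 1, against 5.52%. All 3 KO libraries lay below all 3 WT libraries for 8 tested members, against 10.1% of tested genes, and above them for 1, against 13.2% (23.3% either way). Among the 8 were Klrc1, Klre1 and Klrg2, which are not Ly49 genes. Because replicates with the same number deviated together in these groups, values with the replicate number as a block are given beside those that it changed. Such pairs are not stated in the labels, and values with the block rest on that assumption. Klra17 was at 0 in all KO libraries and at 0.0622, 0.291 and 0.273 CPM in WT. The KO group held no count and the WT group 37, so it was at least 10.8-fold lower in KO. It was not called (edgeR adjusted p = 0.0563), but was with the block (0.0226), by DESeq2 (0.00512), with no filter on low counts (0.0263) and without syngeneic WT replicate 1 (0.0317). Klra8 stood at 0.121, 0.155 and 0.119 CPM in syngeneic KO and 0.373, 0.667 and 0.443 in syngeneic WT, without overlap. Its log2 fold change was −1.89 ± 0.49 (edgeR adjusted p = 0.0707, or 0.0300 in the blocked fit of these 6 libraries alone).

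**Figure D5:**
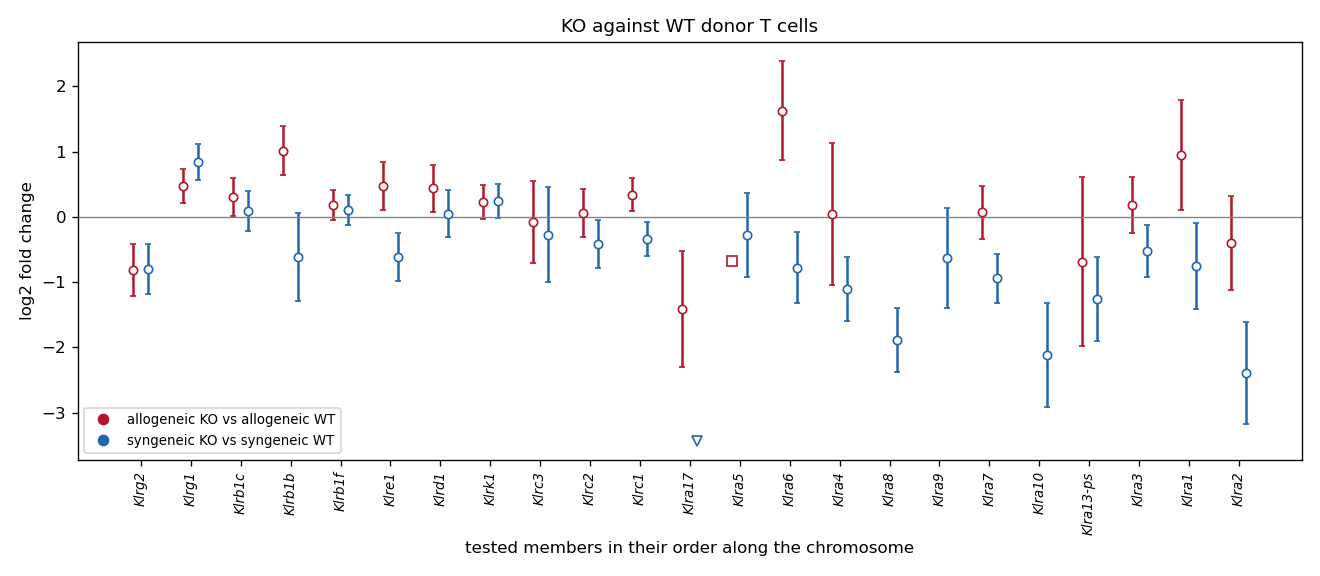
Log2 fold change of KO against WT for the tested members, in their order along the chromosome, in allogeneic cells (red) and syngeneic cells (blue). Open circles are fitted values with SE, the triangle is the bound for Klra17 and the square a ratio of counts for Klra5. Members with 3 counts or fewer in both groups are left out, and no symbol is filled because no member was called.

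In the blocked fit of these 6 libraries, which tested 20 members and 17656 genes, 4 members were called lower, against 5.13% of genes, and 1 higher, against 2.16%. Beside Klra8, Klra4 had a log2 fold change of −1.10 ± 0.49 (edgeR adjusted p = 0.339, and 0.0294 in that fit) and Klra7 of −0.94 ± 0.37 (0.271, and 0.0336 in that fit, or 0.0495 without syngeneic KO replicate 3). Klra13-ps had −1.26 ± 0.64 (edgeR adjusted p = 0.402, and 0.0103 in that fit). The member called higher there was Klrg1, which stood at 13.7, 9.90 and 8.84 CPM in syngeneic KO and 5.57, 6.59 and 5.96 in syngeneic WT without overlap, with a log2 fold change of 0.84 ± 0.27 (edgeR adjusted p = 0.152, and 0.0241 in that fit). Klra2 had −2.40 ± 0.78 (adjusted p = 0.156) and Klra10 −2.11 ± 0.80 (0.277) by edgeR.

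The summed Ly49 level was lower in syngeneic KO, though edgeR called no Ly49 gene in the filtered fit of all libraries without the block. Other values moved with that level. Of the 8 myeloid markers, 5 were called lower, and of the 6 markers of red cell precursors, 6, the red cell markers with summed levels of 10.5 to 48.2 CPM in KO and 1535 to 3157 in WT. Over all tested genes, 2.63% were called lower. The list named NK-defining summed to 1.79 to 9.78 CPM in KO and 7.92 to 24.0 in WT. Of its 5 genes edgeR called 0 (2 had a raw p under 0.05, and 2 were called by DESeq2). Most of that sum was Tyrobp (means of 3.35 CPM in KO and 10.3 in WT) and Fcer1g (1.95 and 6.69), which are not particular to NK cells. Ncr1 had means of 0.176 CPM in KO and 0.594 in WT, and Khdc1a went the other way (0.0587 and 0.0270). The gamma delta markers summed to 9.83 to 15.0 CPM in KO and 21.2 to 24.5 in WT without overlap, and edgeR called 0 of 6 (4 had a raw p under 0.05, and 1 was called by DESeq2). The part of these cells in the Ly49 values was not tested. Of the other lists, edgeR called Gzmk, a granzyme (1.97 ± 0.29), and Prdm1 (1.03 ± 0.17) higher in syngeneic KO and no adaptor, ligand or neighbour gene in either direction. Tyrobp, at means of 3.35 CPM in KO and 10.3 in WT, had an adjusted p of 0.0176 by DESeq2 and of 0.000199 in the blocked fit of these 6 libraries by edgeR. That fit called 1 adaptor (Tyrobp) and 2 neighbours lower, 2 CD8 genes higher and 1 lower, and 2 factors higher. Of all its genes, 5.13% were lower and 2.16% higher.

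The test of whether the response to allogeneic transplantation differed between KO and WT called 0 members, where 0.477% of all tested genes were called by edgeR (0.428% higher and 0.0488% lower). For 2 members the raw p was under 0.05, against 6.2% of tested genes, and DESeq2 called 0, against 1.59%. Those with a raw p under 0.05 were Klra6 and Klra17. Klra6 fell less in KO, with a difference of 2.40 ± 0.93 between the log2 fold changes (edgeR adjusted p = 0.605). For Klra17 the adjusted p was 0.661, with no count in any syngeneic KO library.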

How the data were processed

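Total RNA libraries (100 ng, ribosomal RNA depleted, per the labels' protocols) were sequenced by the authors. The values used are expected counts per gene as deposited, and build GRCm38 with Cuffdiff 2.2.1, Cufflinks, TopHat2 2.0.13 and Bowtie2 2.2.1 appears in the submitters' processing notes. Which tool made the counts, its annotation, strand setting and handling of shared reads are not given in the sources used here. Between 94.5 and 95.0% of values were whole. Counts were rounded, and CPM were taken over TMM-scaled library sizes. The columns of 12 libraries were used, and 6 columns of per-sample values were not. Naive samples were not analysed here.

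All 12 libraries entered a single edgeR 4.0.16 fit with group means and 8 residual degrees of freedom (limma 3.58.1, R 4.3.3), using TMM scaling, filterByExpr (count minimum 10, 18447 genes kept) and robust quasi-likelihood F tests, two-sided, adjusted over all tested genes (threshold 0.05). DESeq2 1.42.0 was an alternative. SE is the log2 fold change over the square root of F. A group at 0 was set to 3 counts over the group for a fold, which is then a bound. Intervals (exact conditional, 95%) and floors cover counting error only. The series text calls the replicates biologic triplicates. In simulated data for allogeneic against syngeneic WT (18447 genes, 200 changed), 35% of 2-fold and 92% of 4-fold changes were recovered. Every simulated gene had the same dispersion, and changed genes were drawn from all tested genes. These rates therefore do not describe members with few counts. Positions are from GENCODE M21 (28 of 28 members matched).

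Members, lists, motifs and comparisons were chosen with earlier results of these data known. All members are accounted for. From the adaptor, ligand, neighbour, CD8 and factor lists, up to 4 called genes with the smallest p in each comparison were to be named, with Hcst, Tyrobp, H2-T23 and Cdh1 always. One gene that this rule names is not reported here. Clec2d, Cd4, Cd8a, Cd8b1, Ncr1 and Eomes were named after their values were seen. Same-numbered libraries deviated together between syngeneic KO and WT (r = 0.170 to 0.545), so those numbers were taken to pair libraries. Between libraries of unlike number r ran from −0.501 to 0.363, so the ranges overlapped. The labels state no pairs, and the pairing is an assumption drawn from these data. In the other comparisons same-numbered libraries did not all deviate together.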

Additional observations from a re-analysis of the deposited data

How the results depend on the processing

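The alternatives were DESeq2's size factors in edgeR, DESeq2, no filter on low counts, fits of only the groups compared, the replicate block (alone or within the groups compared), omission of ribosomal RNA genes and leaving out each library. Of 603 values of 47 member results under them, 571 kept direction and side of the threshold, 7 lost the call, 25 gained it and 0 reversed. Of the other 68 member results, which were called under none of them, 30 changed sign under some alternative. A member that an alternative did not test gave no value there, so a call missing for that reason is not among the 7. In allogeneic against syngeneic WT, 5 to 7 members were called higher and 9 to 11 lower, and in KO 6 to 8 higher. The number lower in KO was 8, and 5 when only the groups compared were fitted, with or without the replicate block, where 17 members were tested, and 6 to 9 without single libraries. In syngeneic KO against WT, 0 members were called higher and 1 with the replicate block within the groups compared. There 0 were called lower, 1 by DESeq2, 1 with no filter, 1 with the replicate block among all libraries and 4 with it within the groups compared, and 0 to 1 without single libraries, namely Klra7 without syngeneic KO replicate 3 and Klra17 without syngeneic WT replicate 1. In allogeneic KO against WT and in the interaction, 0 were called under every alternative. Where numbers do not pair libraries, the replicate block gave Klrc2 in WT an adjusted p of 0.00161 (0.00234 within the groups compared), Klra17 in KO 0.0362, and within the groups compared Klre1 in WT 0.0126 and Klrd1 in WT 0.00859, which were also called there without it (0.0144 and 0.00675). Fits of only the groups compared also called Hcst (0.0063) and H2-T23 (0.0459) in allogeneic against syngeneic WT. The number of adaptors called higher moved to 9 and, with the block, 11 in WT from 5, and in KO from 3 to 1 there, 6 by DESeq2 and 1 to 8 without single libraries. With the block in those fits, adjusted p in KO was 0.178 for Fcer1g, 0.0607 for Zap70 and 0.181 for Cdh1. Without ribosomal RNA genes, the family's mean was 383.6 CPM in allogeneic WT, 115.6 in syngeneic KO and 130.2 in syngeneic WT. Members with few counts are limited by depth, since 3 counts in a library correspond to 0.0305 to 0.0704 CPM.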
